A study of Mus musculus with 4 samples.

Results

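Aminoacyl-tRNA synthetases were followed in 4 RNA sequencing libraries of mouse bone marrow-derived macrophage-like cells (BMMs). The 36 genes comprised 20 cytosolic enzymes and 16 mitochondrial enzymes, the symbols of the mitochondrial enzymes ending in 2. They were found by gene symbol among 23920 genes in the table, the values of a gene's transcripts were added up, and all 36 were among the 10763 genes that reached 1 FPKM in 1 library or more. FPKM counts fragments per kilobase of transcript at a common depth and is a level per length, so that levels of different genes can be set side by side. Each condition had 1 library. The cKO library came from STAT5 cKO cells (STAT5;MX1-Cre) cultured with IL-3 beside M-CSF and RANKL. The other libraries came from Stat5fl/fl cells, which carry floxed Stat5a and Stat5b without the Cre transgene: the IL-3 library with all 3 cytokines, the RANKL library with M-CSF and RANKL, and the M-CSF library with M-CSF alone. M-CSF was given at 30 ng/mL, RANKL at 100 ng/mL and IL-3 at 1 ng/mL, for 24 h. The donor mice were male C57BL/6 mice, labelled as 8 weeks old, whereas the methods give a younger age for mice used in osteoclast cultures. The Mx1 promoter that drives Cre responds to type I interferon and is not restricted to osteoclast precursors, and both genotypes received poly I:C injections as pups according to the methods. No source used here says whether a library pooled several mice.

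Each synthetase joins 1 amino acid to its matching tRNAs at the cost of ATP, and the charged tRNAs then carry the amino acids to the ribosome. Mammals encode separate nuclear genes for most cytosolic and mitochondrial enzymes, and the mitochondrial enzymes serve only the few proteins encoded by mitochondrial DNA. In the cytosol several synthetases assemble with scaffold proteins into the multisynthetase complex, and uncharged tRNA activates the kinase GCN2, which raises translation of the transcription factor ATF4. Osteoclasts, the bone-resorbing cells that RANKL induces from BMMs, secrete acid and proteases in large amounts, and IL-3 acts on BMMs through a receptor that activates STAT5.

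Promoter sequences, which are shown because the synthetase genes stood at related levels in the 4 libraries, were taken from RefSeq on build GRCm38.p6 for the 27 members with an entry in the table. They were searched on both strands over the 250 bases before the gene start. The first motif was the C/EBP-ATF element TGATGNAA, a class of site that ATF4 binds with C/EBP proteins, and it was found in 3 of 27 members (11.1%) and in 3.91% of all 27025 genes with a promoter. The 3 were among 13 cytosolic members, and 0 of 14 mitochondrial members had a match. The capitals mark the match, which lay on the strand opposite to each gene.
Gars (chr6:55037941-55038000, plus strand): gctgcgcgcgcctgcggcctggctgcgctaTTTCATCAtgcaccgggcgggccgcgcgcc
Aars (chr8:111033704-111033763, plus strand): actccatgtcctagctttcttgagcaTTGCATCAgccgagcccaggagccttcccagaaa
Tars (chr15:11399659-11399718, minus strand): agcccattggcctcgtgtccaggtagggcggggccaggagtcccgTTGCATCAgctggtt

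The element ended 23 bases before the start of Gars, 8 bases before that of Tars and 105 bases before that of Aars, whose start in the promoter table lay inside the annotated span of the gene. The second motif was the palindromic E-box CACGTG, a site read by MYC and by the MiT factors, and it was found in 3 of 27 members (11.1%), all cytosolic, and in 6.86% of all genes. It did not overlap the first element in Aars, the single member with a match to both. The capitals again mark the match.
Farsb (chr1:78488903-78488962, minus strand): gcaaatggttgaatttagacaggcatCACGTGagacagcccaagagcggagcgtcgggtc
Aars (chr8:111033670-111033729, plus strand): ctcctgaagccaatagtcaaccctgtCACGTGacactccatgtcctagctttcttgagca
Iars (chr13:49682035-49682094, plus strand): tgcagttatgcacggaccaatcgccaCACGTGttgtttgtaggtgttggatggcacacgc

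A match is a description of the letters in this window. Of the members with a match, Gars, Tars, Farsb and Iars had their higher levels in the cKO and RANKL libraries, as most members had, and Aars differed less between libraries.

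The libraries summed to between 507691 and 544287 FPKM, and low values implied depths of 34.8 to 38.5 M fragments. Stat5a stood at 0.168 FPKM in the cKO library, against 11.96 FPKM in the IL-3 library, 10.8 FPKM in the RANKL library and 9.89 FPKM in the M-CSF library, and Stat5b at 0.191 FPKM, against 8.86, 7.80 and 10.8 FPKM. The 10 most abundant genes took 10.4% of all FPKM in the cKO library, 12.5% in the IL-3 library, 8.79% in the RANKL library and 15.3% in the M-CSF library. The cell type label is osteoclast for all 4 libraries, while the title of the M-CSF library names precursors. Of 10 osteoclast markers 8 reached 1 FPKM in some library, Calcr was listed at 0 throughout and Oscar stayed below 1 FPKM. The markers summed to 518 FPKM in the cKO library, 141 in the IL-3 library, 1277 in the RANKL library and 45.9 in the M-CSF library. Itgb3 went against the other measured markers, with 0.40, 1.13, 0.82 and 1.38 FPKM in the same order. Sums over 9 macrophage markers were 12728, 18009, 8443 and 23283 FPKM in the same library order. Lyz2 alone made up most of them, with 11241, 15871, 7176 and 19887 FPKM. Cd14, with 249, 147, 93.9 and 240 FPKM, was the 1 marker of the 9 that stood higher in the cKO than in the IL-3 library. Those over 8 dendritic cell markers were 129, 593, 117 and 172 FPKM, with Flt3, Ccr7, Zbtb46 and Dpp4 below 1 FPKM. Those over 7 neutrophil markers were 766, 1077, 733 and 1285 FPKM. Lists of mast cell, lymphocyte and stromal markers summed to at most 2.02 FPKM in any library. These marker sums moved with the conditions that are compared here, and their part in the synthetase levels was not tested. In bulk libraries a change in the share of a cell type and a change in RNA per cell cannot be told apart.

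Nearly all synthetase genes differed in the same direction in each comparison. The 20 cytosolic genes summed to 1201 FPKM in the cKO library, 922 FPKM in the IL-3 library, 1222 FPKM in the RANKL library and 840.0 FPKM in the M-CSF library, and the 16 mitochondrial genes to 198, 155, 210.0 and 145 FPKM in the same order. The RANKL library held the highest level for 25 of 36 members and the cKO library for 9. The M-CSF library held the lowest level for 27 members and the IL-3 library for 7. Shares of all genes with these highest and lowest libraries were not computed, so that these counts only describe the members. In 33 of 36 members the RANKL library was above the M-CSF library and the IL-3 library below both the RANKL and the cKO library, 19 cytosolic and 14 mitochondrial, where 51.3% of all genes compared had this pattern. All genes together were themselves off 0: their median log2 ratio was 0.14 for RANKL against M-CSF, -0.15 for the IL-3 comparison and 0.13 for the cKO comparison. With these medians set to 0, 29 of 36 members had this pattern, 18 cytosolic and 11 mitochondrial, where 36.8% of all genes had it. The 3 comparisons share libraries, so that a high RANKL library or a low IL-3 library enters more than 1 of them.

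**Figure D1:**
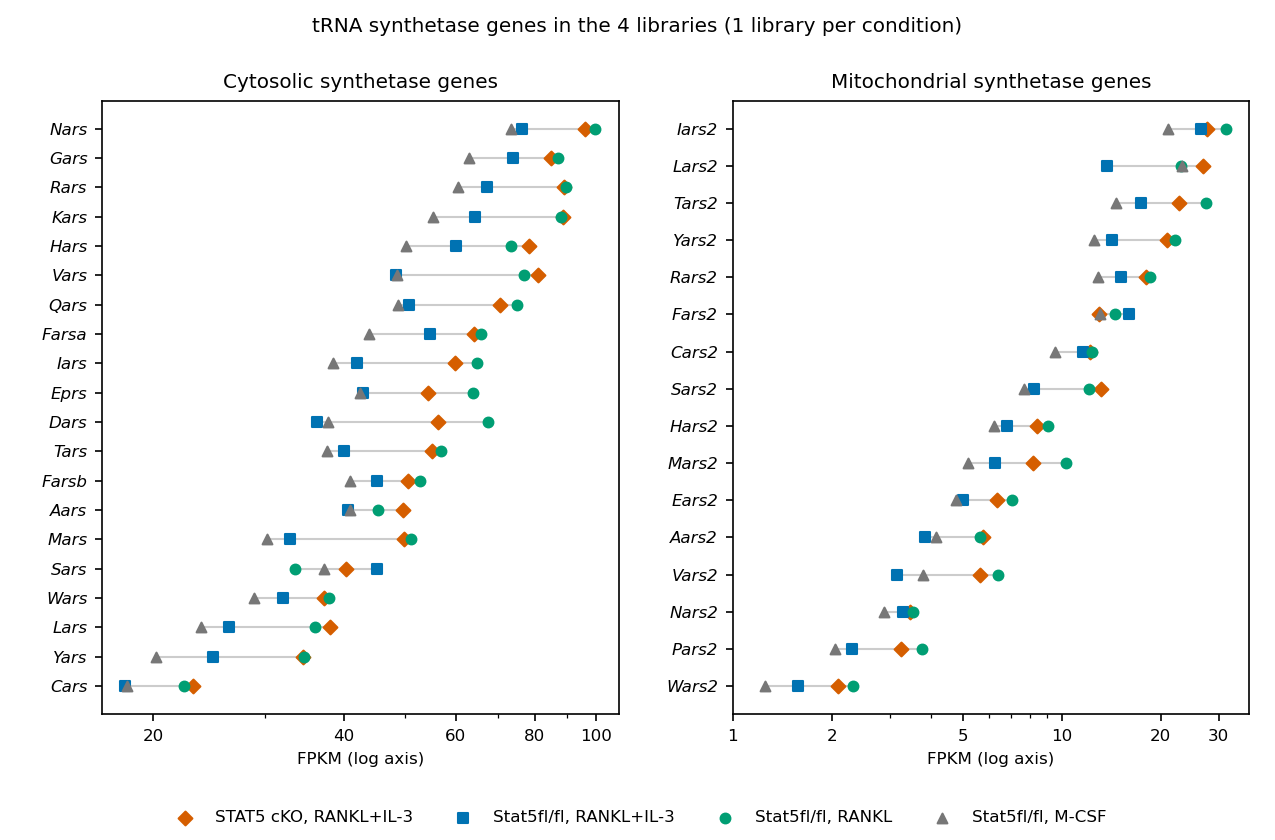
FPKM of the 20 cytosolic and 16 mitochondrial synthetase genes in the 4 libraries, on log axes, each symbol being 1 library. In most rows the circle of the RANKL library and the diamond of the cKO library lie to the right of the square of the IL-3 library and the triangle of the M-CSF library, while Sars has the IL-3 library on the right and the RANKL library on the left, and Lars2 has the IL-3 library alone on the left.

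Of the 8 enzymes of the multisynthetase complex, Dars (chr1:128363707-128417416), which charges aspartate, had 56.3 FPKM in the cKO library, 36.2 FPKM in the IL-3 library, 67.6 FPKM in the RANKL library and 37.8 FPKM in the M-CSF library. Iars, the isoleucine enzyme, had 59.99, 41.9, 64.9 and 38.5 FPKM, and Mars, the methionine enzyme, 49.8, 32.96, 51.1 and 30.3 FPKM, in the same library order. In all 3 genes the cKO and RANKL libraries stood above the IL-3 and M-CSF libraries. Qars, which charges glutamine, had 70.5, 50.6, 75.1 and 48.8 FPKM, and Eprs, a single protein that charges both glutamate and proline, had 54.4, 42.8, 64.03 and 42.3 FPKM, again in the order cKO, IL-3, RANKL and M-CSF. For 6 of the 8 enzymes, all but Kars and Lars, the cKO library lay between the IL-3 and RANKL libraries. Kars, the lysine enzyme that serves both cytosol and mitochondria from 1 gene, had 88.6, 64.4, 87.97 and 55.2 FPKM, and Rars, the arginine enzyme, 88.9, 67.2, 89.5 and 60.4 FPKM. In Kars and Rars the cKO and RANKL libraries differed by less than 1 FPKM. The leucine enzyme Lars ranged between 23.8 and 38.1 FPKM, with the cKO library highest and the M-CSF library lowest.

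Among the other cytosolic enzymes Vars (chr17:35000907-35016329), which charges valine, had 81.03 FPKM in the cKO library, 48.3 FPKM in the IL-3 library, 76.9 FPKM in the RANKL library and 48.5 FPKM in the M-CSF library. Its cKO library was the highest of the 4, and its IL-3 and M-CSF libraries could not be told apart at this depth. Yars, the tyrosine enzyme, had 34.5, 24.9, 34.6 and 20.3 FPKM, and Tars, the threonine enzyme, had 55.1, 39.97, 57.00 and 37.6 FPKM, in the order cKO, IL-3, RANKL and M-CSF. Both had nearly level cKO and RANKL libraries. The members with the highest mean levels were Nars, Gars, Rars, Kars and Hars. Nars, the asparagine enzyme, had 96.2, 76.4, 99.7 and 73.5 FPKM. Gars, which charges glycine in both compartments from 1 gene, had 84.8, 73.9, 87.1 and 63.1 FPKM. Hars, the histidine enzyme, had 78.2, 60.03, 73.3 and 50.1 FPKM. In these abundant genes the cKO and RANKL libraries again stood above the other two. Farsa and Farsb, the subunits of the phenylalanine enzyme, Wars (tryptophan) and Cars (cysteine) ranged between 18.1 and 65.9 FPKM, and all 4 had their 2 higher levels in the cKO and RANKL libraries. Aars, the alanine enzyme, ranged between 40.6 FPKM in the IL-3 library and 49.6 FPKM in the cKO library.

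Sars (chr3:108424864-108445259), which charges serine, stood against all other cytosolic genes. It had 40.3 FPKM in the cKO library, 45.1 FPKM in the IL-3 library, 33.5 FPKM in the RANKL library and 37.2 FPKM in the M-CSF library. The IL-3 library was the highest and the RANKL library the lowest, so that each comparison had the opposite sign to that of the list. The larger of its 2 transcripts carried the difference, with 37.9, 43.2, 31.5 and 35.6 FPKM in the same library order, while the other stayed between 1.60 and 2.37 FPKM. Sars was singled out after its values were seen.

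The mitochondrial enzymes were expressed at lower levels and with wider counting error. Mars2, the methionine enzyme, had 8.20 FPKM in the cKO library, 6.28 FPKM in the IL-3 library, 10.3 FPKM in the RANKL library and 5.20 FPKM in the M-CSF library. Tars2 (threonine) had 22.7, 17.5, 27.4 and 14.7 FPKM, and Yars2 (tyrosine) 20.9, 14.3, 22.1 and 12.6 FPKM, in the same library order. The RANKL library was the highest in all 3, and the M-CSF library the lowest. Vars2 (chr17:35655634-35667639), the valine enzyme, had 5.66, 3.15, 6.43 and 3.79 FPKM, with its IL-3 library lowest. Sars2 charges serine and, unlike the cytosolic Sars, had the directions of the list, with 13.2, 8.23, 12.1 and 7.71 FPKM. The 3 members with the lowest mean levels were Wars2 (tryptophan), Pars2 (proline) and Nars2 (asparagine). Wars2 had 2.09, 1.58, 2.33 and 1.26 FPKM, Pars2 3.26, 2.31, 3.75 and 2.05 FPKM and Nars2 3.47, 3.30, 3.53 and 2.88 FPKM. All 3 had the RANKL library highest and the M-CSF library lowest. The remaining Aars2, Cars2, Ears2, Hars2, Iars2 and Rars2 ranged between 3.85 and 31.7 FPKM, and in each the RANKL and cKO libraries were the 2 highest.

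A pair of mitochondrial genes departed from this. Lars2 (chr9:123366927-123462675), the leucine enzyme, had 26.8 FPKM in the cKO library, 13.8 FPKM in the IL-3 library, 23.01 FPKM in the RANKL library and 23.2 FPKM in the M-CSF library. The IL-3 library stood alone as low, and the RANKL and M-CSF libraries were level. Fars2, the phenylalanine enzyme, had 13.03, 16.00, 14.5 and 13.1 FPKM in the same order, with the IL-3 library highest and the cKO and M-CSF libraries lowest and level, and it was singled out after its values were seen.

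The first comparison asked which synthetase genes differed with RANKL in Stat5fl/fl BMMs. The cytosolic and mitochondrial enzymes stood higher with RANKL than in the M-CSF library, by a median of 0.58 and 0.53 on the log2(FPKM + 1) scale, against 0.14 for all genes compared. The largest cytosolic differences were those of Dars, with a log2 ratio of 0.82 ± 0.07, Yars at 0.74 ± 0.08, Iars at 0.74 ± 0.05 and Mars at 0.74 ± 0.06, where ± gives an approximate 95% interval for counting error only. Among the mitochondrial genes Mars2 had 0.87, Tars2 0.86 ± 0.10 and Yars2 0.76 ± 0.13. No interval is given for Mars2, as the transcript length used for it, 11294 bases, was longer than its RefSeq span (chr1:55237177-55240058). In linear terms Dars was 1.79-fold and Mars2 1.99-fold higher with RANKL. A ratio above 0 was found for 34 of 36 members, where 61.0% of all genes had one, and the exceptions were Sars at -0.15 ± 0.06 and Lars2 at -0.01 ± 0.07. Relative to the median of all genes 33 of 36 stood higher. At least 1.5-fold higher were 9 cytosolic and 6 mitochondrial members, where 15.6% of all genes were, and 0 members were at least 1.5-fold lower, where 13.9% of all genes were. With the median of all genes set to 0, a setting chosen after seeing the data, 7 members were at least 1.5-fold higher, the cytosolic Dars, Iars, Mars and Yars and the mitochondrial Mars2, Tars2 and Yars2, where 10.5% of all genes were. At 2-fold there was no member in either direction, where 5.44% of all genes were higher and 6.88% lower. As each condition had 1 library, no test was possible, and the intervals hold no variation between cultures or mice.

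The second comparison asked what IL-3 did to these genes in the presence of RANKL. Both groups stood lower in the IL-3 library than in the RANKL library, by a median log2 ratio of -0.42 for the cytosolic and -0.44 for the mitochondrial genes, against -0.15 for all genes. Dars, at -0.88 ± 0.07, was the lowest cytosolic member, ahead of Vars at -0.66 ± 0.04, Iars at -0.62 ± 0.04 and Mars at -0.62 ± 0.06. The lowest mitochondrial members were Vars2, at -0.84 ± 0.12, and Lars2, at -0.70 ± 0.08. In untransformed FPKM the level of Vars2 was 2.04-fold lower with IL-3, and that of Dars 1.87-fold lower. A ratio below 0 was found for 34 of 36 members, where 64.0% of all genes had one. The exceptions were Sars, at 0.42 ± 0.06, and Fars2, at 0.13 ± 0.11. Relative to the median of all genes 31 of 36 stood lower, and Aars, Cars2 and Nars2 joined the exceptions. At least 1.5-fold lower were 4 cytosolic and 5 mitochondrial members, where 12.7% of all genes were, and no member was 1.5-fold higher, where 12.1% of all genes were. With the median of all genes set to 0 only Dars and Vars2 were at least 1.5-fold lower, where 7.14% of all genes were. No member was 2-fold apart on the log2(FPKM + 1) scale, where 3.47% of all genes were lower and 6.11% higher.

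The third comparison asked whether the IL-3 culture differed without STAT5. The synthetase genes stood higher in STAT5 cKO cells than in Stat5fl/fl cells, both with RANKL and IL-3, by a median log2 ratio of 0.39 for the cytosolic and 0.31 for the mitochondrial genes, against 0.13 for all genes. Lars2, at 0.91 ± 0.07, and Vars2, at 0.68 ± 0.12, had the largest mitochondrial ratios, and Vars, at 0.74 ± 0.04, and Dars, at 0.62 ± 0.07, the largest cytosolic ones. Lars2 was 1.95-fold and Vars 1.68-fold higher in cKO cells in untransformed FPKM. A ratio above 0 was found for 34 of 36 members, where 64.4% of all genes had one. The exceptions were again Sars, at -0.16 ± 0.05, and Fars2, at -0.28 ± 0.12. Relative to the median of all genes 31 of 36 stood higher, with Cars2, Iars2 and Nars2 now on the other side. At least 1.5-fold higher were 2 cytosolic and 3 mitochondrial members, where 8.43% of all genes were, and no member was 1.5-fold lower, where 8.89% of all genes were. With the median of all genes set to 0 only Vars and Lars2 were at least 1.5-fold higher, where 5.08% of all genes were. At 2-fold no member stood apart, where 2.11% of all genes were higher and 4.28% lower.

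**Figure D2:**
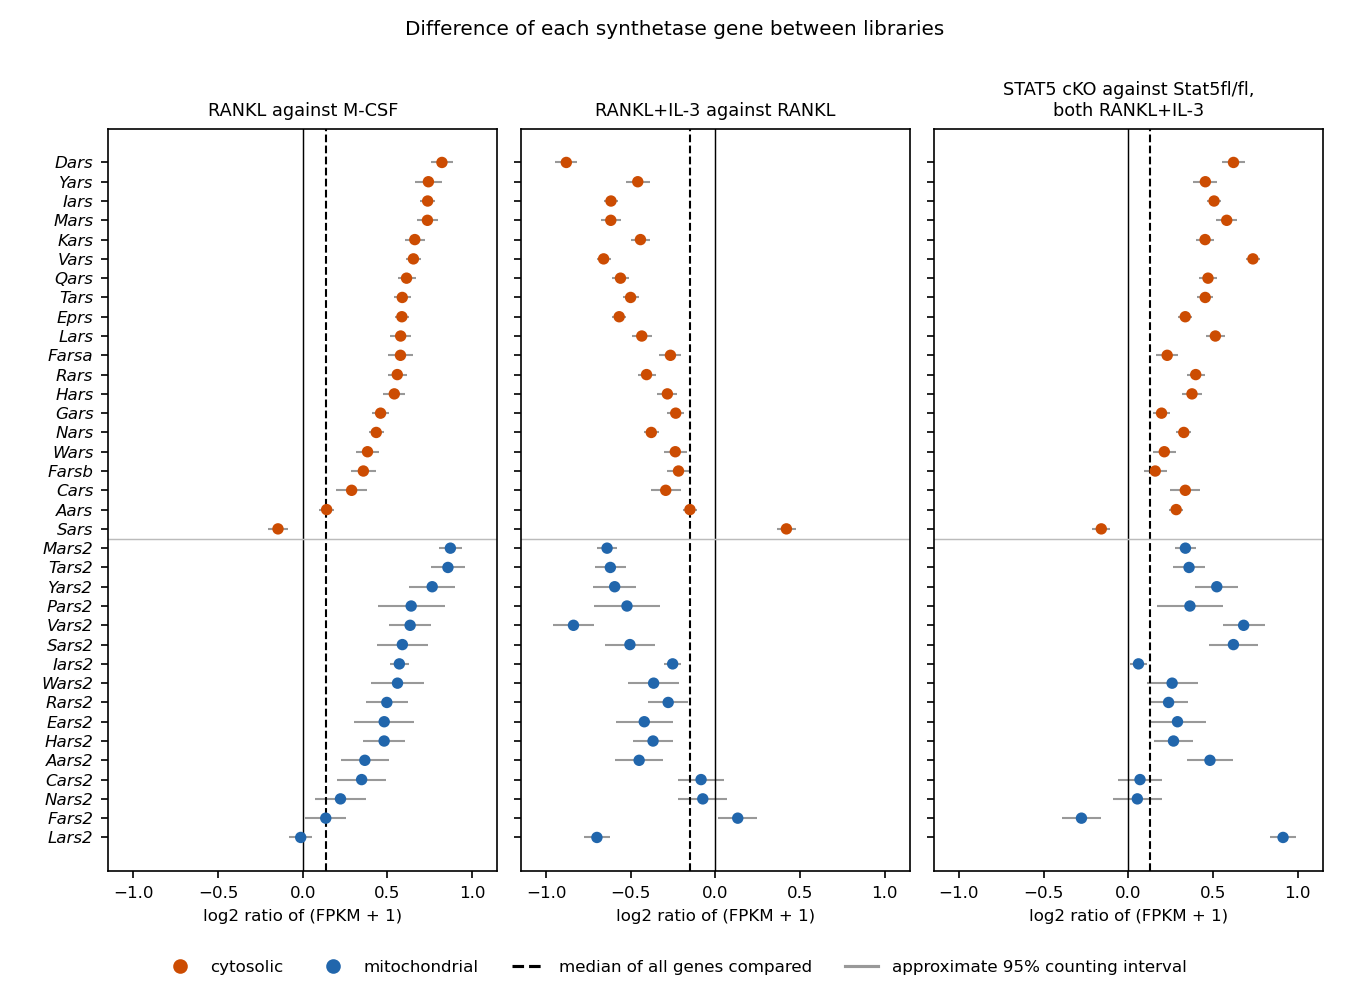
Log2 ratio of (FPKM + 1) for each synthetase gene in the 3 comparisons, cytosolic genes above and mitochondrial genes below the grey line, each sorted by the first comparison. Grey bars are approximate 95% counting intervals, that of Mars2 being too narrow, and the dashed line is the median of all genes compared. Most points lie beyond the dashed line on 1 side in each panel, with Sars on the opposite side in all 3.

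Counting error was small beside most of these differences. The half-width of the interval on a log2 ratio lay between 0.04 and 0.09 for cytosolic members and between 0.05 and 0.20 for mitochondrial members. The interval left out 0 for all 20 cytosolic members in each comparison, and for 15, 14 and 14 of 16 mitochondrial members. It left out the median of all genes for 33, 32 and 30 of 36 members. Intervals were not computed for all genes, so that these counts have no share of all genes beside them. Whether these differences exceed the spread between cultures or between mice could not be measured with 1 library per condition.

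Over the members as a whole the IL-3 library stood slightly above the M-CSF library, and the cKO library close to the RANKL library. The median log2 ratio of IL-3 against M-CSF was 0.14 over the members and -0.0032 over all genes, with a range over the members of -0.71 for Lars2 to 0.32. That of the cKO library against the RANKL library was -0.04 over the members and -0.02 over all genes, with a range of -0.30 to 0.26. The cKO level lay between those of the IL-3 and RANKL libraries for 25 of 36 members and above the RANKL level for 10. How many of all genes had these positions was not computed, and they are not shown to be particular to the members. The cKO and RANKL cultures differ in genotype and in IL-3, so that these 2 factors cannot be told apart in that ratio.

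RANKL against M-CSF and cKO against Stat5fl/fl have no library in common. Over the 20 cytosolic members the ratios of these comparisons were related, with Pearson's r at 0.84 and Spearman's rho at 0.83, while over the 16 mitochondrial members r was 0.13 and rho 0.35, and over all genes r was 0.67 and rho 0.71. The points are genes of the same 4 libraries, and these coefficients are a description. Among the mitochondrial members Lars2 lay far from the rest, with a log2 ratio of -0.01 for RANKL and the highest ratio of all members in cKO cells. Sars lay apart from the other cytosolic members, with log2 ratios of -0.15 for RANKL and -0.16 in cKO cells. Coefficients without Lars2 or Sars were not computed.

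**Figure D3:**
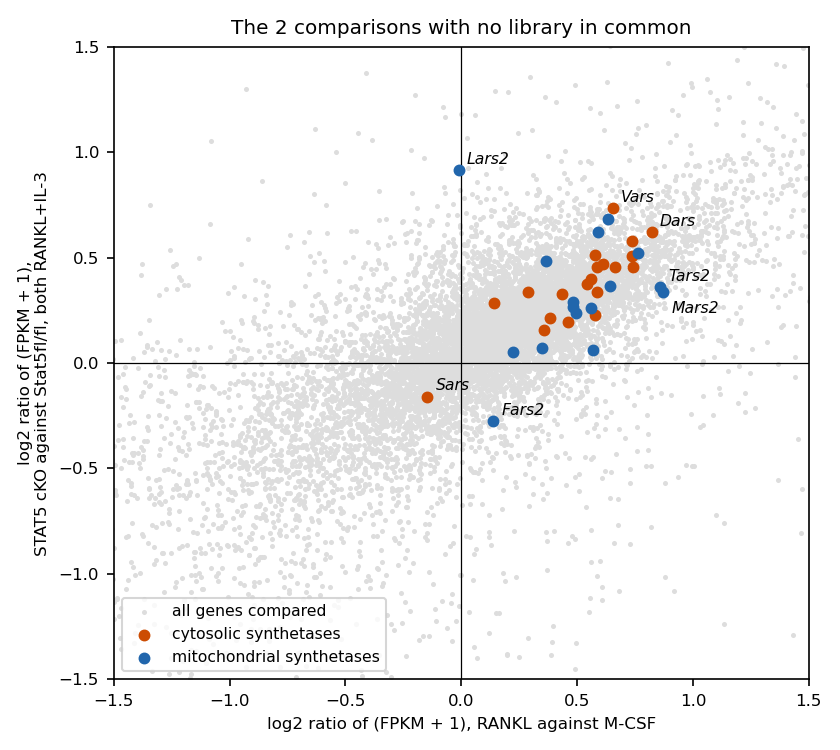
Log2 ratio of (FPKM + 1) in cKO against Stat5fl/fl cells, plotted against that in RANKL against M-CSF, for all 10763 genes (grey, those within 1.5 of 0 on both axes shown), 20 cytosolic and 16 mitochondrial synthetase genes. Synthetase genes sit in the upper right, except Sars in the lower left, Fars2 below 0 on the vertical axis and Lars2 near 0 on the horizontal axis and 0.91 on the vertical axis.

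For 15 amino acids the cytosolic and mitochondrial enzymes could be set side by side, with Eprs used for both glutamate and proline. The cytosolic gene stood higher than its mitochondrial partner in all 15 pairs and in every library. The median ratio of levels was 6.08 in the cKO library, 5.48 in the IL-3 library, 4.94 in the RANKL library and 5.82 in the M-CSF library. Asparagine had the widest gap, with Nars at 27.7, 23.1, 28.2 and 25.5 times the level of Nars2 in the same library order. Leucine had the narrowest in the cKO and M-CSF libraries, with Lars at 1.42, 1.91, 1.57 and 1.03 times the level of Lars2. In the RANKL library tyrosine was level with leucine at 1.57, and in the IL-3 library cysteine, at 1.56, had the narrowest gap. Serine had the least stable gap, since Sars stood at 3.05, 5.48, 2.77 and 4.82 times the level of Sars2. The pairs went both ways in their log2 ratios between libraries. The cytosolic minus mitochondrial difference had a median of -0.02 in the RANKL comparison, with a range of -0.73 to 0.59, a median of 0.08 in the IL-3 comparison, with a range of -0.36 to 0.92, and a median of 0.05 in the cKO comparison, with a range of -0.78 to 0.45, and the cytosolic ratio was the larger number in 7, 9 and 9 of 15 pairs. Serine was the extreme pair in each comparison. No pair reached a difference of 1 on the log2 scale, that is 2-fold.

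**Figure D4:**
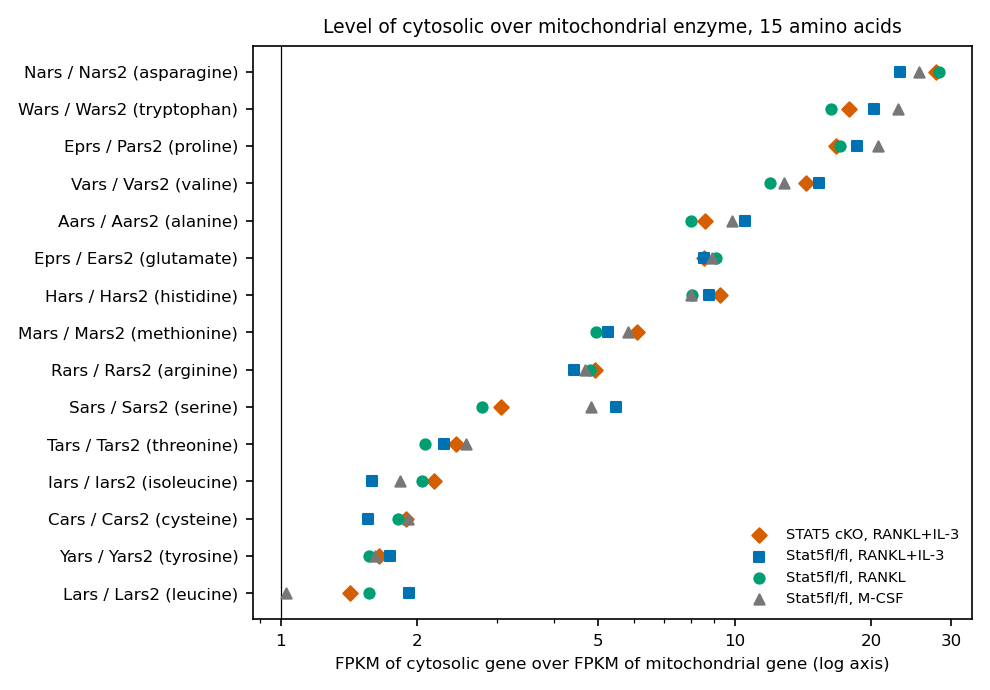
Level of each cytosolic synthetase gene over that of its mitochondrial partner for 15 amino acids, on a log axis, each symbol being 1 library. All symbols lie to the right of 1, from 1.03 for leucine in the M-CSF library to 28.2 for asparagine in the RANKL library, and serine and leucine show the widest spread between libraries.

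The cytosolic enzymes were also described by subgroup. The 8 multisynthetase complex enzymes had median log2 ratios of 0.64, -0.57 and 0.49 in the 3 comparisons, and the 3 scaffold genes of the complex, Aimp1, Aimp2 and Eef1e1, had 0.66, -0.46 and 0.44. Eef1e1, also known as AIMP3, had 70.2 FPKM in the cKO library, 51.3 FPKM in the IL-3 library, 71.01 FPKM in the RANKL library and 38.6 FPKM in the M-CSF library. Of the cytosolic members 12 are known as ATF4 targets in other cells, and their medians were 0.52, -0.41 and 0.34, against 0.60, -0.43 and 0.43 for the 8 others. The 9 class I enzymes, whose catalytic domain has a Rossmann fold, had 0.61, -0.46 and 0.47. The 10 class II enzymes, with an antiparallel catalytic fold, had 0.50, -0.28 and 0.31, with Eprs left out because it holds a domain of each class. These subgroups overlap, and no difference between them was tested.

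Most genes that act next to the synthetases differed in the same directions, and they are given by the step they serve. The 20 genes of tRNA maturation and modification had median log2 ratios of 0.57, -0.46 and 0.40 in the 3 comparisons. At least 1.5-fold higher with RANKL were 9, where 15.6% of all genes were. With IL-3 5 were so lower, where 12.7% of all genes were, and in cKO cells 3 were so higher, where 8.43% were. None was 1.5-fold apart in the other direction, where 13.9%, 12.1% and 8.89% of all genes were. The largest ratios were those of Nsun2, a cytosine methyltransferase of tRNA, which had 109 FPKM in the cKO library, 55.99 FPKM in the IL-3 library, 129.9 FPKM in the RANKL library and 41.3 FPKM in the M-CSF library. Its log2 ratios were 1.63, -1.20 and 0.95, beyond those of any synthetase gene. Pus7, a pseudouridine synthase, had 18.5, 10.3, 21.2 and 8.17 FPKM in the same order, Pus1, another such enzyme, 44.9, 29.8, 46.02 and 24.9 FPKM, and Elac2, which trims the 3' ends of tRNA precursors, 20.7, 14.9, 20.3 and 11.1 FPKM. The 6 genes of selenocysteine synthesis, selenocysteine insertion and tRNA proofreading had medians of 0.60, -0.53 and 0.47. All 6 lay on the side of the synthetases in each comparison, where 61.0%, 64.0% and 64.4% of all genes did. Dtd1, which removes D-amino acids from tRNA, had 10.1, 6.99, 11.1 and 5.34 FPKM.

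The 7 genes of cytosolic elongation and its regulation, which include Eef2k, the kinase of the translocase Eef2, had medians of 0.69, -0.36 and 0.32. Of these 4 were at least 1.5-fold higher with RANKL and 0 were 1.5-fold apart in the other comparisons. Among all genes, for each list of this paragraph, 15.6% were so higher and 13.9% so lower with RANKL. With IL-3 these shares were 12.1% and 12.7%, and in cKO cells 8.43% and 8.89%. Eif5a had 1302 FPKM in the cKO library, 1045 FPKM in the IL-3 library, 1291 FPKM in the RANKL library and 746 FPKM in the M-CSF library, and Eef1d, Eef1g and Eef1b2, subunits of an elongation exchange factor, likewise had their lowest level in the M-CSF library. The 9 mitochondrial translation factor genes, which serve initiation, elongation, release or ribosome recycling, had 0.45, -0.28 and 0.19, and 4 were 1.5-fold higher with RANKL. Tufm, which delivers charged tRNA to the mitochondrial ribosome, had 98.6, 75.05, 107 and 59.1 FPKM in the same library order, and Gfm1, the translocase, 37.3, 29.9, 41.7 and 24.5 FPKM. The 3 measured genes of mitochondrial transamidation and initiator tRNA formylation, Gatc, Qrsl1 and Mtfmt, had medians of 0.11, -0.25 and 0.27, and 0 were 1.5-fold apart, while Gatb was not matched in the table. Qrsl1 and Gatc, subunits of the enzyme that makes mitochondrial glutaminyl-tRNA in place of a synthetase, had 8.12, 7.86, 7.97 and 7.30 FPKM and 17.4, 14.02, 16.8 and 16.5 FPKM, nearly level with RANKL and with M-CSF.

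The 14 genes that sense uncharged tRNA or act on the translation factor eIF2 had medians of 0.55, -0.44 and 0.39. At least 1.5-fold higher with RANKL were 6, where 15.6% of all genes were. With IL-3 3 were so lower, where 12.7% of all genes were, and in cKO cells 2 were so higher, where 8.43% were. In the other directions there were 0, where 13.9%, 12.1% and 8.89% of all genes were. Ppp1r15a, which brings a phosphatase to eIF2, had 8.45 FPKM in the cKO library, 5.82 FPKM in the IL-3 library, 11.5 FPKM in the RANKL library and 3.81 FPKM in the M-CSF library. Eif2b3, a subunit of the exchange factor of eIF2, had 31.6, 19.7, 34.4 and 15.9 FPKM, and Gcn1l1, which activates GCN2, 17.4, 12.99, 21.3 and 12.5 FPKM. Impact, an inhibitor of GCN2, differed in the opposite direction in each comparison, with 11.7, 15.1, 10.7 and 12.2 FPKM, and was singled out after its values were seen. GCN2 itself (Eif2ak4) had 4.71, 4.08, 5.77 and 3.65 FPKM in the same library order, with log2 ratios of 0.54, -0.41 and 0.17 in the 3 comparisons.

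ATF4 and its targets other than synthetases did not share 1 direction. Atf4 had 124 FPKM in the cKO library, 118 FPKM in the IL-3 library, 119.6 FPKM in the RANKL library and 95.02 FPKM in the M-CSF library, so that its mRNA was level in the 3 RANKL cultures and lower with M-CSF alone. Of 32 genes 25 were measured at 1 FPKM or more, with medians of 0.33, -0.01 and 0.11. With RANKL 7 were at least 1.5-fold higher and 5 lower, with IL-3 8 higher and 4 lower, and in cKO cells 6 higher and 6 lower. Shares of all genes, higher and lower, were 15.6% and 13.9% with RANKL, 12.1% and 12.7% with IL-3, and 8.43% and 8.89% in cKO cells. Slc1a5, a glutamine transporter, had the directions of the synthetases, with 117, 66.99, 147 and 42.6 FPKM in the order cKO, IL-3, RANKL and M-CSF. The transcription factor genes Atf3 and Cebpb had the opposite directions, with 6.92, 54.4, 4.94 and 52.7 FPKM for Atf3 and 62.7, 169.7, 42.7 and 92.8 FPKM for Cebpb. Slc7a11, the cystine transporter, had 1.46, 9.49, 1.56 and 2.06 FPKM, high in the IL-3 library alone. Measured interferon-gamma response genes, a list taken up because Wars is induced by this cytokine in many cells, numbered 11 of 15 and had medians of 0.10, 0.12 and 0.24, and Wars had 37.3, 32.02, 37.9 and 28.9 FPKM.

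**Figure D5:**
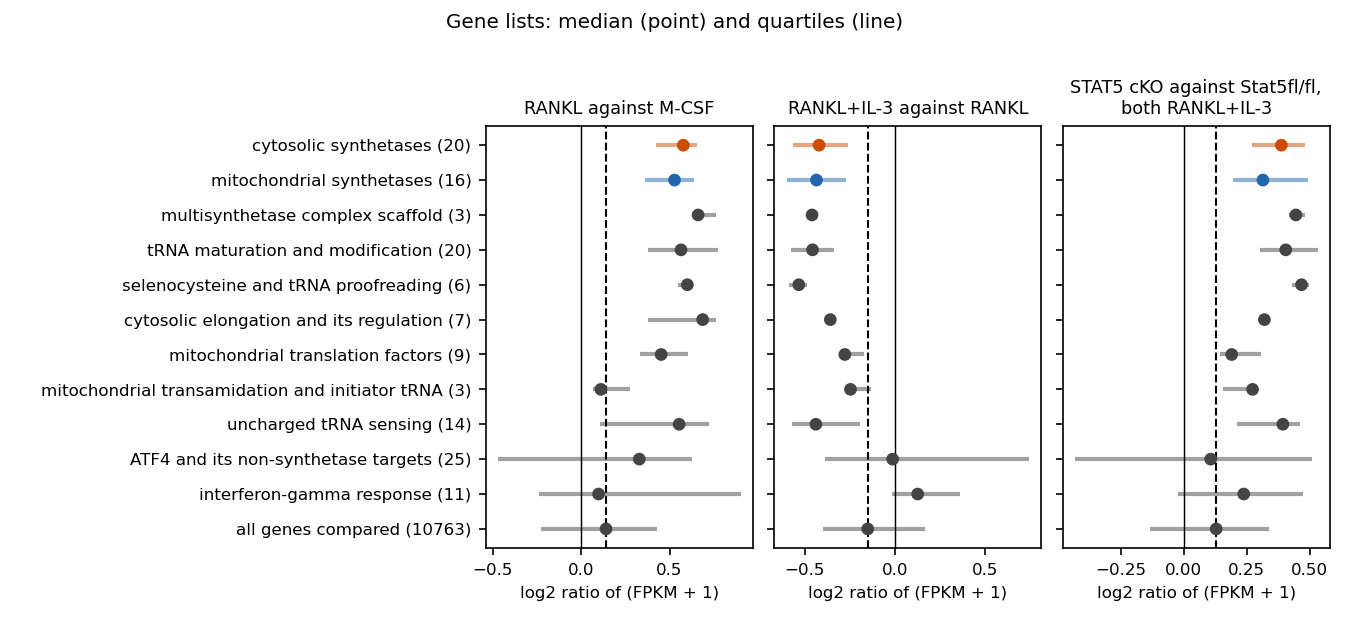
Median (point) and quartiles (line) of the log2 ratio of (FPKM + 1) over the genes of each list, with the number measured in brackets, for the 3 comparisons. The dashed line is the median of all genes compared. The synthetases, the scaffold, tRNA maturation and tRNA sensing lists have medians between 0.53 and 0.66 with RANKL, and the ATF4 target list reaches across 0 in each panel.

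Some members share exon sequence positions with other genes, and no source used here says whether fragments were counted by strand. In the GENCODE annotation 32.2% of the exon bases of Iars2 lay under exons of Rab3gap2 or 2010103J01Rik on the other strand, 23.1% of those of Aars under Exosc6 on the same strand and 11.3% of those of Farsb under Sgpp2 on the other strand. Hars and Hars2, which start next to each other on opposite strands, shared 9.80% and 5.85% of their exon bases. The shared part was 6.69% for Vars2, 4.90% for Fars2, 4.35% for Ears2, 2.29% for Mars and 1.03% for Yars, and 0 for the other 26 members. Values of Iars2, Aars and Farsb can hold fragments of these neighbours. Of the 36 members 13 had more than 1 transcript in the table.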

How the data were processed

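RNA was sequenced in 4 libraries, 1 per condition, with a TruSeq RNA kit on a HiSeq2000 system. The submitters' processing notes name TopHat2 2.0.13 and Cufflinks 2.2.1 and the mm10 assembly, without options. The deposited table holds values per RefSeq transcript that the authors made with Cufflinks, and the unit, FPKM, was inferred from that tool and from values that are not whole and are never negative. Each of the 4 columns was assigned through the sample descriptions, and 0 columns were left unmatched.

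Transcripts were summed per gene, 46 small RNA genes were left out, and log2(FPKM + 1) was compared between libraries for the 10763 genes that reached 1 FPKM in any library. An added 1 FPKM understates the ratio of low genes. No test was run, as each condition has 1 library. Depth was inferred from the steps between low values in genes with 1 transcript, 1000 bases long or more, with a mean fragment length of 210 bases fitted to the same values, and between 74.8% and 78.7% of these lay within 0.2 steps of a whole fragment, where even spacing gives 40%. Counting intervals (95%) follow from this depth and from annotated transcript lengths, are approximate, and cover counting error only. The length used for Mars2 exceeded its RefSeq span, so that its interval is too narrow wherever it was used. The ratio steps were tested on simulated libraries.

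The members and the 21 lists were chosen with earlier results of these data known. By rule all 4 values are given for members at least 1.5-fold apart in any comparison, the 5 with the highest and the 3 with the lowest mean level, and for enzyme pairs at least 2-fold apart in ratio (none), which gives 22 members, and up to 4 genes of a pathway list are named. Sars, Fars2 and Impact, and Wars, Gatc, Qrsl1, Eif2ak4 and Atf4 beside their lists, were named outside it. Values of the authors' own comparisons were not used. Alternatives were a pseudocount of 0.1 FPKM, 3 other scalings, a minimum of 5 FPKM or none, the most abundant transcript per gene and a 1.5-fold threshold, and, chosen after seeing the data, this threshold with the median ratio of all genes set to 0. Gene positions and promoters are from RefSeq on GRCm38.p6, and exons from GENCODE. Python 3.11.15, numpy 2.4.6, pandas 2.3.3 and matplotlib 3.10.9 were used.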

Additional observations from a re-analysis of the deposited data

How the results depend on the processing

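The median log2 ratios of both groups kept their sign in each comparison under every alternative run. With the median of all genes set to 0 they were 0.44 (cytosolic) and 0.39 (mitochondrial) for RANKL against M-CSF, -0.27 and -0.28 for IL-3 against RANKL, and 0.26 and 0.19 for cKO against Stat5fl/fl. With a common upper quartile the cytosolic medians were 0.50, -0.35 and 0.30. With a common sum (TPM) the medians for IL-3 were -0.53 (cytosolic) and -0.56 (mitochondrial). At least 2-fold apart was 1 mitochondrial gene, Vars2, lower with IL-3, under this scaling and also with a pseudocount of 0.1 FPKM, against 0 as reported. A threshold of 1.5-fold gave 9 cytosolic and 6 mitochondrial genes higher with RANKL, 4 and 5 lower with IL-3, and 2 and 3 higher in cKO cells. With the median of all genes also set to 0, which was chosen after seeing the data, it gave 4 and 3 higher with RANKL, 1 and 1 lower with IL-3, and 1 and 1 higher in cKO cells. Lars2 stood below 0 with RANKL as reported and above 0 with a common sum (TPM). Fars2 with RANKL, Aars, Cars2 and Nars2 with IL-3 and Cars2, Iars2 and Nars2 in cKO cells changed side when the median of all genes was set to 0, and the last 3 also with a common upper quartile. With the most abundant transcript Farsb turned negative in cKO cells. Sars kept its direction under each scaling. Ratios of single genes moved by more than their counting interval in 92 cases with the median of all genes set to 0, 63 with a common upper quartile, 37 with a common sum, 8 with the most abundant transcript and 7 with the lower pseudocount, and no ratio of 1.5-fold or more changed sign. Cases of Mars2, whose interval is too narrow, are among these.

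No paired analysis was possible because each condition has 1 library. Variation between cultures or mice was not measured, so that none of these ratios has a replicate check. Depth limits the low mitochondrial genes most: for Pars2 the counting interval was ± 0.20 on the log2 scale.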

Other observations

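At the level of single transcripts some members showed differences that their sums per gene hide, Qars, Pars2 and Yars2 among them. Values are given for 2, Wars and Farsb. A minor Wars transcript had 0.0876, 1.59, 0.000634 and 0.00207 FPKM in the cKO, IL-3, RANKL and M-CSF libraries, high in the IL-3 library alone, while the main Wars transcript had 36.04, 29.4, 37.2 and 27.0 FPKM. For Farsb a secondary transcript had 13.3, 8.46, 13.3 and 9.89 FPKM in the same order, and the main transcript 33.1, 33.2, 34.6 and 27.2 FPKM, so that the lower Farsb level with IL-3 lay mainly in the secondary transcript. Transcripts of 1 gene share most of their sequence, and the split between them is an estimate of the authors' software with no error given. All members named in this paragraph were chosen after their values were seen.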
